A study of Mus musculus with 2 samples.

Results

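The miR-34 and miR-449 family was examined in small RNA libraries of the E9.5 mouse heart. Its members were all hairpin entries named miR-34a, miR-34b, miR-34c, miR-449a, miR-449b or miR-449c, whichever arm the name carried. Of these 6 names, 5 were listed. They made up 7 of 568 hairpin entries in replicate 1 and 6 of 523 in replicate 2, or 7 of the 620 entries found in either. MiR-449b was listed in neither replicate, and miR-449c was listed in replicate 1 alone.

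The series held 1 group of 2 samples, both hearts of wild type C57BL/6 mouse embryos at embryonic day 9.5, with no treatment, so no condition could be compared and the replicates were set against each other. Each library was made from Trizol-extracted total RNA with the Illumina TruSeq small RNA kit and read in single 50-nt reads. How many hearts went into each sample, and whether the samples came from separate litters, is not given in the sources used here, so the spread between them may be technical.

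The miR-34 members are best known as products of genes that p53 switches on after DNA damage. MicroRNAs of the family repress cell cycle genes such as cyclins and their kinases. MiR-34a has a gene of its own, miR-34b and miR-34c are cut from 1 shared primary transcript, and the miR-449 hairpins sit in an intron of Cdc20b. MiR-34b, miR-34c and miR-449 are typical of multiciliated epithelium and testis, and miR-34a has been studied in the ageing and injured heart.

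The mature sequences listed for the members are shown because the family is defined by what they share, the seed at bases 2 to 8 that pairs with target mRNAs. The seed is in capitals and each sequence runs 5′ to 3′.
miR-34a-5p: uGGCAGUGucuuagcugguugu
miR-34b-5p: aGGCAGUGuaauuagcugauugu
miR-34c-5p: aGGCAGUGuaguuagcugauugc
miR-449a-5p: uGGCAGUGuauuguuagcugg
miR-449c-5p: aGGCAGUGcauugcuagcuggcug
miR-34b-3p: aAUCACUAacuccacugcca
miR-34c-3p: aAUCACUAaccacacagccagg

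The 5p products of all 5 listed members carried the seed GGCAGUG, and the 3p products of miR-34b and miR-34c carried another, AUCACUA. No entry outside the family had GGCAGUG as the seed of its mature sequence in either replicate. Among the 1679 mouse mature sequences of the RefSeq table (build GRCm38.p6), 4 had it, and these were miR-34a-5p, miR-34b-5p, miR-449a-5p and miR-449c-5p. MiR-34c-5p and miR-449b were not matched in that table, so they are not part of this count. MiR-34b-5p and miR-34c-5p were the closest pair of 5p products, 2 edits apart, with the substitutions A11G and U23C (miR-34b-5p base first, positions counted from 1 at the 5′ end). MiR-34a-5p and miR-34c-5p were 5 edits apart, and miR-34c-5p and miR-449c-5p were 7 edits apart. Each of the 5 listed mature sequences had 1 perfect match in the mm9 genome, so reads of one member did not match another member's locus in full.

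The lengths listed were not always those of RefSeq. MiR-34b-3p was listed with 20 nt, against 22 nt in RefSeq, and miR-449a-5p with 21 nt against 22. MiR-449c-5p was listed with 24 nt against 21. MiR-34b-5p was listed with 22 nt in replicate 1 and with 23 nt in replicate 2, the latter being the RefSeq form shown above. In each of these the 5′ end, and so the seed, was that of RefSeq. MiR-34a-5p, with 22 nt, was the same in both sources.

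The hairpins lay at 3 places in the mm9 genome (1-based coordinates). The miR-34c hairpin (55 nt) was at chr9:50911149-50911203 and the miR-34b hairpin (57 nt) at chr9:50911681-50911737, both on the minus strand, 477 nt apart and outside any other annotated gene, with miR-34b first along the transcribed strand. The nearest protein-coding genes on either side were 4833427G06Rik, 965 nt from miR-34c, and Btg4, 12368 nt from miR-34b. The miR-34a hairpin (66 nt) was at chr4:149442582-149442647 on the plus strand, also intergenic, with Gpr157 18826 nt and H6pd 59449 nt away. The miR-449c hairpin (64 nt) at chr13:113826216-113826279 and the miR-449a hairpin (62 nt) at chr13:113827757-113827818 were in intronic sequence of Cdc20b (chr13:113825587-113881343), on the same strand as that gene. The annotated Mir449b gene lies at chr13:113827627-113827706, between them, and had no entry. No entry of another miRNA lay within 10000 nt of any member.

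MiR-34c and miR-449a each had a second entry, a hairpin that overlapped the first and held the same mature sequence at its other end. The hairpins of the miR-34 members are shown with the mature bases in capitals, to show how 1 sequence of miR-34c was placed in 2 folds.
miR-34a: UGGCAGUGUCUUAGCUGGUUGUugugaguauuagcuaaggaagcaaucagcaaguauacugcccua
miR-34b: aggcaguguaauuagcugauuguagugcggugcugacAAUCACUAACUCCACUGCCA
miR-34c, first hairpin: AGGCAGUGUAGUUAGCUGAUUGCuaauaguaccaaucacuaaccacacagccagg
miR-34c, second hairpin: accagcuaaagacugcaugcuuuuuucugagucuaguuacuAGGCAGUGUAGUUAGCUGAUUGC

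The second miR-34c hairpin (64 nt, chr9:50911181-50911244) had 35 nt within the annotated Mir34c gene and shared 23 nt, the mature sequence, with the first. Both entries were given the same 2251 mature reads in replicate 1 and 1852 in replicate 2. Star reads, those of the opposite arm, numbered 36 and 27 on the first hairpin and 0 and 0 on the second. The miRDeep2 score, a log-odds measure of how well the reads fit a processed hairpin, was 1100 and 950.0 for the first and 0.2 and 0.2 for the second. The computed folding energy was -20.9 kcal/mol for the first and -19.2 kcal/mol for the second, both weaker than the median of -24.1 kcal/mol over all entries of replicate 1. The second miR-449a hairpin, at chr13:113827718-113827777, had scores of -5.2 and -5.7, below the -1.1 and -1.6 of the first. Reads listed again in this way were 47.1% of the family's mature reads in replicate 1 and 46.1% in replicate 2, so the levels of the members below refer to 1 entry per locus unless stated.

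**Figure D1:**
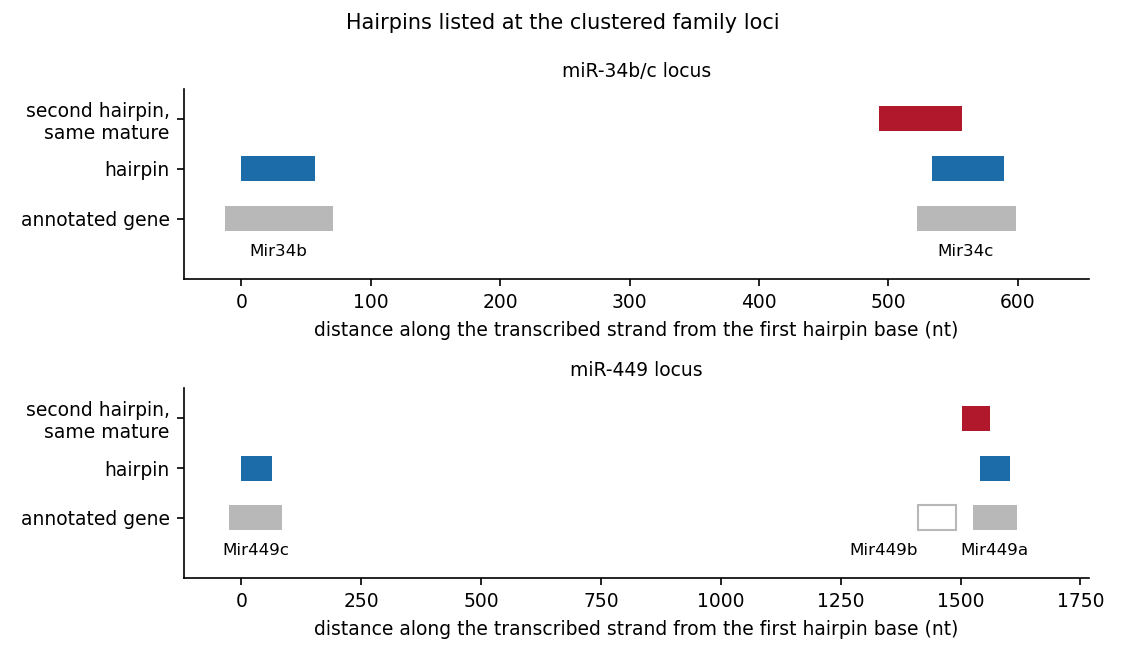
Positions of the listed hairpins at the miR-34b/c and miR-449 loci, in nt along the transcribed strand from the first base of the first hairpin. Blue bars are hairpins, red bars are second hairpins with the same mature sequence, grey bars are annotated miRNA genes with an entry, and the open bar is Mir449b, which had none; the miR-34b and miR-34c hairpins are 477 nt apart.

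MiR-34c was the most abundant member, followed by miR-34b and miR-34a, and miR-449a and miR-449c were at the edge of detection. Levels are given as the share of a library's mature reads summed over all entries. Their 95% Wilson intervals cover counting error only, since reads carried no molecular identifiers. These sums were 4942257 in replicate 1 and 4806179 in replicate 2, and they count a sequence at each hairpin that lists it. With each mature sequence once, the totals were 3619523 and 3499739. On that basis the mean shares were 0.0576% for miR-34c-5p, 0.00591% for miR-34b-3p and 0.00223% for miR-34a-5p. The shares below use the larger sums. A share compares reads and not molecules, because ligation differs between sequences, and in whole hearts fewer cells of a type and less RNA per cell cannot be told apart.

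MiR-34c-5p had 2251 reads in replicate 1, a share of 0.0455% (0.0437 to 0.0475), and 1852 reads in replicate 2, a share of 0.0385% (0.0368 to 0.0403). Its mean was 0.042% ± 0.005 (SD, n = 2), and the intervals of the replicates did not overlap. It ranked 148 of the 471 entries listed in both replicates.

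MiR-34b was read mostly from its other arm. MiR-34b-3p had 185 reads, or 0.00374% (0.00324 to 0.00432), in replicate 1 and 235 reads, or 0.00489% (0.0043 to 0.00556), in replicate 2. The mean was 0.00432% ± 0.00081 (SD, n = 2), with the higher value in replicate 2, the opposite order to miR-34c, and it ranked 272 of 471.

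MiR-34a-5p, the member best known from the adult heart, had 84 reads in replicate 1 and 75 in replicate 2. These were 0.0017% (0.00137 to 0.0021) and 0.00156% (0.00125 to 0.00196), with a mean of 0.00163% ± 9.8e-05 (SD, n = 2). The intervals overlapped over most of their length, and it ranked 318 of 471.

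MiR-449a-5p had 5 and 4 reads, or 0.000101% (4.32e-05 to 0.000237) and 8.32e-05% (3.24e-05 to 0.000214). MiR-449c-5p had 5 reads in replicate 1 and no entry in replicate 2. For scale, a count of 3 reads made a share of 6.07e-05% in replicate 1 and 6.24e-05% in replicate 2, and the smallest mature count of any entry was 1 read in both. Neither miR-449 hairpin had a star or loop read, and their scores were below 0, as were those of 26.9% of all entries in replicate 1 and 21.8% in replicate 2.

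**Figure D2:**
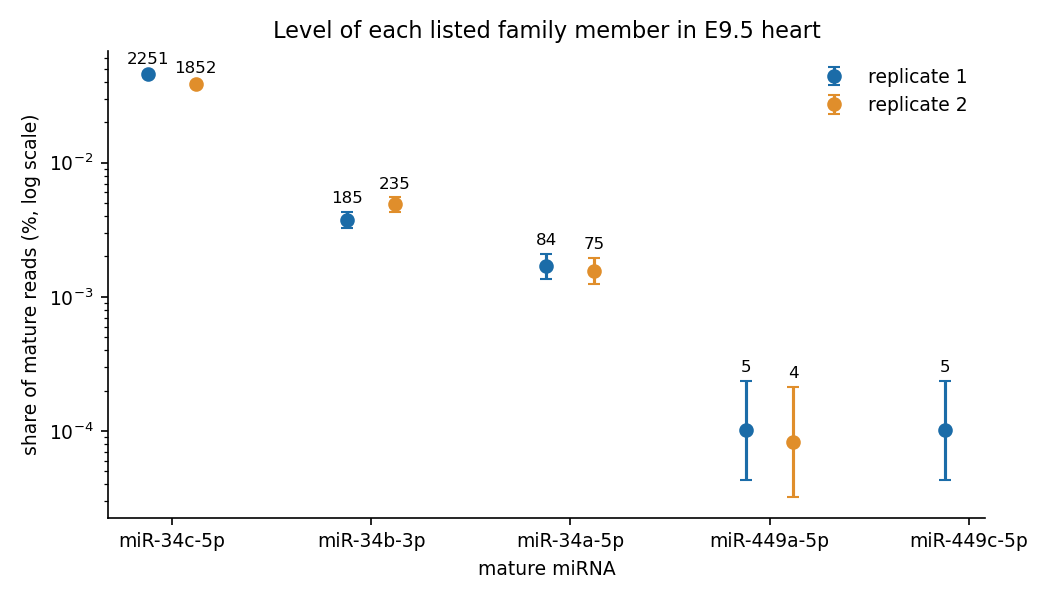
Share of all mature reads (%, log scale) of each listed mature miRNA in replicate 1 (blue) and replicate 2 (orange), with 95% Wilson intervals as bars and the mature reads printed above them. MiR-34c-5p lies near 0.04%, miR-34b-3p and miR-34a-5p below 0.01%, and the miR-449 members rest on 5 reads or fewer.

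Counted with 1 entry per locus, the family had 2530 mature reads in replicate 1 and 2166 in replicate 2, or 0.0481% ± 0.0043 (SD, n = 2) of the mature reads summed over all entries. With both entries of miR-34c and miR-449a counted, as they stand in the tables, the share was 0.0903% ± 0.0093. Within the family, miR-34c made up 87.2% ± 2.5, miR-34b 9.08% ± 2.5, miR-34a 3.39% ± 0.1 and miR-449a 0.191% ± 0.0092 (SD, n = 2 for each). MiR-34c thus accounted for most of the family's reads in both libraries.

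The order of the members held against counting error within each library. Of the 10 pairs of members in replicate 1, 9 differed, and of the 6 pairs in replicate 2, all 6 differed (two-sided exact binomial tests against equal reads, Benjamini-Hochberg adjusted over 16 tests). The exception was miR-449a against miR-449c, at 5 reads each. Reads of miR-34c-5p exceeded those of miR-34b-3p 10-fold ± 3 and those of miR-34a-5p 25.7-fold ± 1.5 (SD, n = 2). MiR-34b-3p exceeded miR-34a-5p 2.2-fold in replicate 1 and 3.13-fold in replicate 2 (exact binomial tests, adjusted p = 7.33e-10 and 3.34e-20). MiR-34a-5p exceeded miR-449a-5p 17.8-fold ± 1.4 (SD, n = 2).

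The arm that gave the mature miRNA differed between the members. A hairpin yields a 5′ and a 3′ strand, and usually 1 of them is kept. MiR-34a had 84 and 75 reads on the 5′ arm and 0 on the 3′ arm in both replicates. The upper bound of the 95% Wilson interval for its 3′ share was 4.37% and 4.87%. For scale, a count of 3 reads would be 3.57% and 4% of these arm reads. MiR-34c had 2251 of 2287 arm reads on the 5′ arm in replicate 1 and 1852 of 1879 in replicate 2, or 98.4% (97.8 to 98.9) and 98.6% (97.9 to 99). MiR-34b had 5 reads on the 5′ arm in each replicate, or 2.63% (1.13 to 6.01) of 190 and 2.08% (0.893 to 4.78) of 240. The neighbouring hairpins of the miR-34b/c locus were therefore read from opposite arms, 62.5-fold and 68.6-fold towards the 5′ arm for miR-34c and 37-fold and 47-fold towards the 3′ arm for miR-34b.

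Arm shares of the members did not differ detectably between the replicates (two-sided Fisher's exact tests over 3 hairpins, p = 0.799 for miR-34c, 0.755 for miR-34b and 1 for miR-34a, adjusted p = 1 for each). Neither choice of arm is unusual among the hairpins of these libraries. Of entries with at least 100 arm reads and a name that gives the arm, 44.5% in replicate 1 and 43.3% in replicate 2 were read mostly from the 3′ arm, and over all entries with that many reads the major arm had a median share of 99%.

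**Figure D3:**
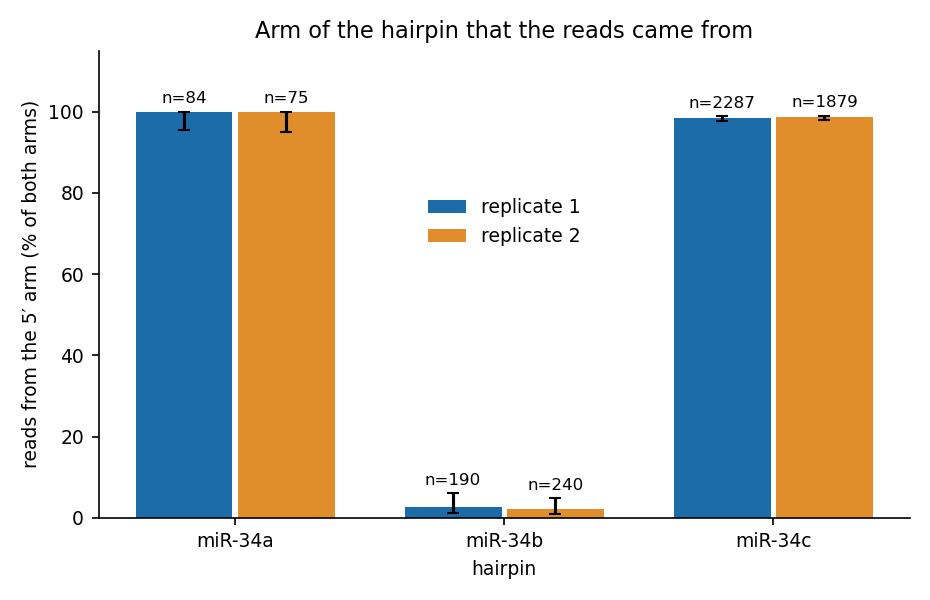
Share of arm reads (%) that came from the 5′ arm of the miR-34a, miR-34b and miR-34c hairpins in replicate 1 (blue) and replicate 2 (orange), with 95% Wilson intervals as error bars and the reads of both arms as n. MiR-34a and miR-34c stand above 98% and miR-34b below 3%.

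The family's reads carried mainly 1 seed, that of its most abundant product, miR-34c-5p. Over both arms, GGCAGUG was carried by 2350 of 2571 family reads in replicate 1, or 91.4%, and by 1936 of 2198 in replicate 2, or 88.1%. AUCACUA was carried by the other 221 and 262 reads, or 8.6% and 11.9%. Of the reads with the AUCACUA seed, miR-34c gave 16.3% and 10.3% (two-sided Fisher's exact test, p = 0.058), and of the 5p reads of the locus it gave 99.8% of 2256 and 99.7% of 1857 (p = 0.762).

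Between the mature forms of the shared transcript, miR-34c-5p took 92.4% (91.3 to 93.4) of miR-34b plus miR-34c reads in replicate 1 and 88.7% (87.3 to 90) in replicate 2, a mean of 90.6% ± 2.6 (SD, n = 2). The replicates differed in this split by more than counting error (two-sided Fisher's exact test, p = 2.44e-05). Since both counts come from the same library, the split does not rest on library scaling. The test does not cover other variation between libraries, so it says only that these 2 libraries differed. The ratio of miR-34c-5p to miR-34b-3p was 12.2 in replicate 1 and 7.88 in replicate 2.

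The replicates were then compared over all entries, to see whether the members differed more than others. Entries present in either table alone were left out, as were those whose mature reads summed to fewer than 20, and each of the remaining 431 was tested for an unequal share (two-sided exact binomial test, Benjamini-Hochberg adjusted over all of them). Of these, 177, or 41.1%, passed at an adjusted p of 0.05, 119 (27.6%) with the higher share in replicate 2 and 58 (13.5%) with the higher share in replicate 1. With the trimmed mean (TMM) scaling of edgeR the split was 86 and 92, and with DESeq2 size factors 78 and 98. The typical spread beyond counting was 15.2% as a biological coefficient of variation, estimated by edgeR.

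Of the members, 4 entries with 3 mature sequences were tested and 3 entries with 2 sequences passed, beside the 41.1% of all entries. MiR-34c-5p was lower in replicate 2, with a log2 ratio of replicate 2 over replicate 1 of -0.24 (exact binomial test, adjusted p = 4.68e-07). Its log2 ratio was -0.3 with TMM scaling and -0.309 with DESeq2 size factors. MiR-34b-3p was higher in replicate 2, with a log2 ratio of 0.39 (exact binomial test, adjusted p = 0.0197), but it no longer passed with TMM scaling (log2 ratio 0.33, adjusted p = 0.0521) or DESeq2 size factors (0.32, adjusted p = 0.0652). MiR-34a-5p had a log2 ratio of -0.12 (exact binomial test, adjusted p = 0.749), and miR-449a, with 9 reads in sum, was too low to test.

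In size, these differences were ordinary for the libraries. The median absolute log2 ratio over the 431 entries was 0.19 and the 90th percentile 0.57. Of the tested entries, 38.3% had a smaller ratio than miR-34a-5p, 61% a smaller ratio than miR-34c-5p and 81.2% a smaller ratio than miR-34b-3p. With 2 samples, a difference between them that exceeds counting error says only that these libraries differ.

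**Figure D4:**
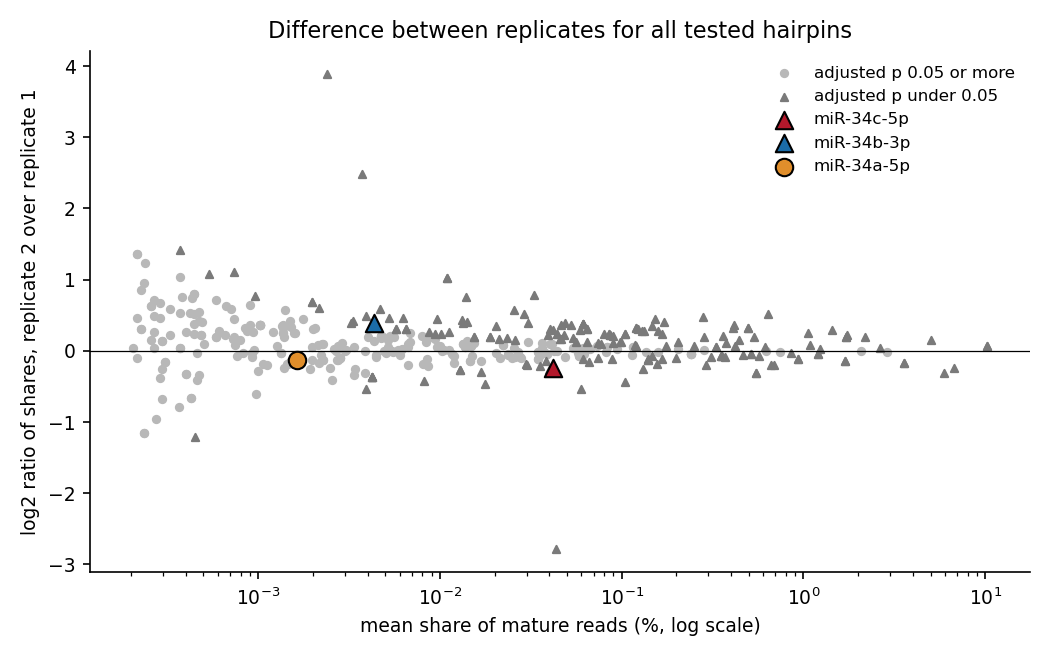
Log2 ratio of the share in replicate 2 over that in replicate 1 against the mean share of mature reads (%, log scale) for the 431 tested hairpin entries, with triangles at an adjusted p under 0.05 and circles otherwise. MiR-34c-5p (red, -0.24), miR-34b-3p (blue, 0.39) and miR-34a-5p (orange, -0.12) lie within the cloud of other entries.

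Placed among all entries by mean share, each member had neighbours at nearly the same level. Just above miR-34c-5p were miR-184-3p, with 3742 and 530 reads, and miR-182-5p, with 2100 and 2031. Just below it were miR-1198-5p, with 1859 and 2215 reads, and miR-125b-5p, with 1975 and 2053. The nearest above miR-34b-3p were miR-142a-3p, a miRNA of blood cells, with 227 and 207 reads, and miR-350-5p, with 205 and 219. Below it stood entries of miR-9-5p, a neural miRNA, with 237 and 178 reads. MiR-34a-5p lay between miR-497a-5p (104 and 85 reads) and miR-325-5p (74 and 98) above it and miR-212-5p (72 and 83) and miR-365-2-3p (71 and 82) below it. MiR-449a-5p was level with miR-3058-5p (3 and 6 reads), miR-1941-3p (4 and 5), miR-1199-5p (5 and 4) and miR-5622-3p (5 and 4). Likeness here means a close mean share over 2 samples and nothing more.

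Other miRNAs described as raised by p53, through transcription or processing, spanned a wide range of levels. All 9 names of that list (miR-15a, miR-16, miR-107, miR-143, miR-145a, miR-192, miR-194, miR-215 and miR-200c) were listed in both replicates, and together they took 7.69% ± 0.79 (SD, n = 2) of mature reads. Nearly all of this was miR-143-3p, a miRNA abundant in smooth muscle, at 6.75% ± 0.79, followed by miR-145a-5p, its neighbour in the genome, at 0.625% ± 0.00078 and miR-16-5p, which restrains the cell cycle, at 0.0462% ± 0.0037. MiR-34c-5p was close to miR-16-5p, which stood at 0.956 of its level in replicate 1 and at 1.27 in replicate 2. Also close were miR-215 and miR-192, at 0.933 ± 0.088 and 0.909 ± 0.042 of the miR-34c-5p level (SD, n = 2). MiR-15a, at 0.00134%, was the lowest of the list and the one below miR-34a.

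Of the 9 names, 1 was higher in replicate 2 (miR-16, log2 ratio 0.17) and 2 were higher in replicate 1 (miR-143, -0.24, and miR-192, -0.15), by the exact binomial test adjusted over all entries, of which 41.1% passed. The median log2 ratio over the list's entries was near 0, at -0.00254, beside 0.07 over all entries tested.

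**Figure D5:**
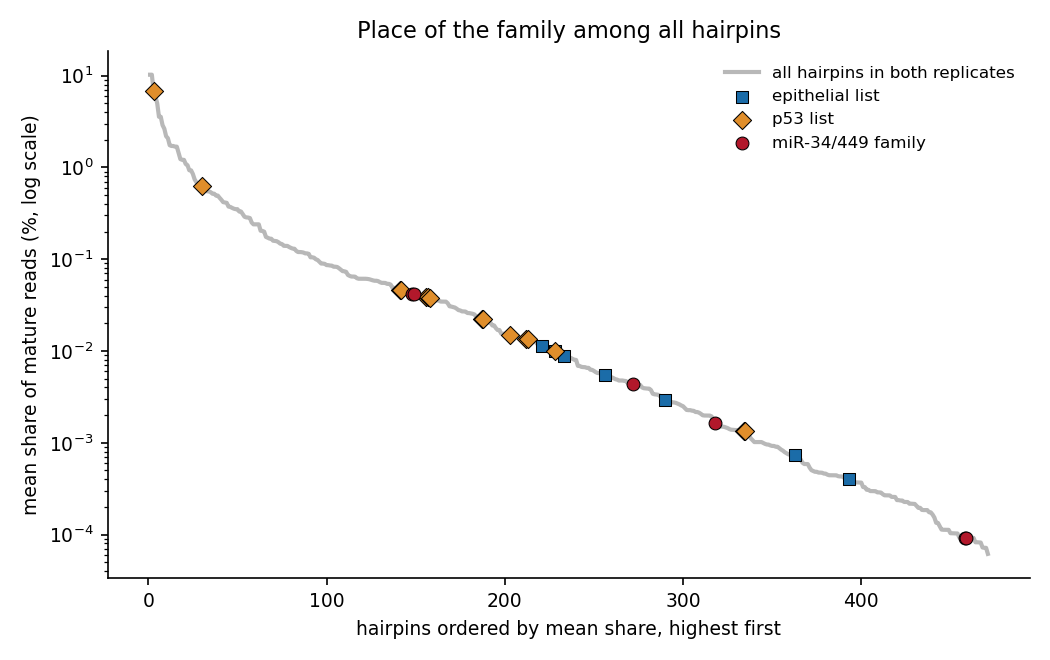
Mean share of mature reads (%, log scale) of the 471 entries listed in both replicates, ordered from highest to lowest (grey line), with the miR-34 and miR-449 family (red circles), the p53 list (orange diamonds) and the epithelial list (blue squares) marked. MiR-200c is on both lists and is drawn as a p53 diamond; miR-34c stands at rank 148, miR-34b at 272, miR-34a at 318 and miR-449a at 457.

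The tissue and its possible admixtures were checked with miRNA markers. Shares of the marker lists, like that of the p53 list, were summed over all entries, so a sequence listed at several hairpins was counted at each. All 5 heart muscle markers were listed, with 23.1% ± 0.64 of mature reads, or 15.9% ± 0.48 with each mature sequence counted once. Of these, miR-208a was listed in replicate 1 alone, with 860 mature reads, so a missing entry does not by itself show a low level. The smooth muscle markers miR-143 and miR-145a, which are also on the p53 list, had 7.38% ± 0.79 (SD, n = 2). The endothelial marker miR-126a had 2.88% ± 0.016 and the liver marker miR-122 had 0.0488% ± 0.0094 (SD, n = 2 for each). Neural markers had 0.0171% ± 0.0032, or 0.00584% ± 0.0011 with each sequence once, since the miR-9-5p reads stood at 4 hairpins, and miR-124 had 2 reads in replicate 1 alone. Erythroid markers had 0.246% ± 0.038, nearly all of it miR-486a, whose reads also stood at more than 1 hairpin. MiR-451a, which red cells make in quantity, had 128 and 127 reads, and miR-144 was listed in replicate 2 alone. Epithelial markers were below the family, whose share was 0.0481% with 1 entry per locus and 0.0903% over all entries. All 8 names were listed, 7 of them in both replicates, with 0.0385% and 0.0407% of mature reads and a mean of 0.0396% ± 0.0016. The highest were miR-200b with 556 and 543 reads, miR-200c with 483 and 493, and miR-205 with 392 and 460. Of the 7 epithelial names tested, only miR-205 differed between the replicates (log2 ratio 0.27, exact binomial test, adjusted p = 0.0188). Of all entries tested in the same way, 41.1% passed. Replicate 1, with the smaller epithelial share, had more miR-34c-5p but less miR-34b-3p. The part of epithelial cells in the levels of these members was not tested.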

How the data were processed

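Small RNA of 2 samples of E9.5 wild type mouse heart was sequenced on an Illumina HiSeq instrument. The authors ran miRDeep2 against the mm9 build and deposited 1 table per sample, which gives for each hairpin whole-number counts of mature, loop and star reads and a miRDeep2 score; its version, the miRBase release and the read trimming are not given in the sources used here. Identifiers that named the arm opposite to the reads were renamed by the arm that held the reads. Coordinates were checked against the mm9 (NCBIM37) genome and annotation. An entry of replicate 1 was matched to that of replicate 2 on the same strand that covered 50% or more of both. Shares, Wilson intervals, exact binomial and Fisher's exact tests were computed in Python 3.11.15 with scipy 1.17.1, and scaling factors and dispersion with edgeR 4.0.16 and DESeq2 1.42.0 in R 4.3.3. With 1 group, no model of group differences could be fitted. Folding used RNAfold 2.7.2. Alternatives covered the scaling, the read minimum (20, 100 or none in sum), which reads were counted, repeated sequences, and each replicate alone. The exact binomial test between replicates was first tried on simulated counts that held counting error only. The other tests were not simulated. The text names all members, the 2 entries just above and below each in level, and the 3 highest of each marker list used in detail. Members and lists were chosen with earlier results of these data known. Sequences come from the deposited tables and RefSeq.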

Additional observations from a re-analysis of the deposited data

How the results depend on the processing

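The family's share of mature reads moved with how repeated sequences were counted, from 0.0903% with every entry to 0.0659% with each mature sequence once in members and total, and to 0.0481% with 1 entry per locus over the unchanged total, a setting chosen after seeing the data. With each mature sequence once, the p53 list held 10.3% and the epithelial list 0.0543%, because the total of mature reads was smaller. The higher share of miR-34b in replicate 2 no longer passed with TMM scaling (log2 ratio 0.327, adjusted p = 0.0521) or DESeq2 size factors (0.317, adjusted p = 0.0652), and its adjusted p was between 0.0157 and 0.0215 under the other settings. The lower share of miR-34c in replicate 2 passed under all 6 other settings tried. Pairs of members that differed in level numbered 6 to 9 with 1 replicate alone, against 15 with both, since each replicate holds part of the pairs. MiR-449a could be compared between replicates only with no read minimum (log2 ratio -0.282, adjusted p = 1). No paired analysis was possible because there was 1 group. Depth limits the miR-449 members, which rest on 5 reads or fewer, and the 5′ arm of miR-34b, with 5 reads per replicate.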
